A study of Mus musculus with 12 samples.

Results

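Myc, its dimer partner Max, its paralogue Mycn, 3 genes of competing dimers (Mxd4, Mxi1 and Mnt) and the target gene Odc1 were followed in thymic invariant natural killer T (iNKT) cells, lymphocytes whose semi-invariant receptor binds lipid antigens. The 7 genes were taken by symbol from the 48672 Ensembl gene IDs of the count tables, and each symbol matched 1 ID. RNA-seq libraries had been made from iNKT cells of C57Bl/6J mice aged 4 to 5 weeks that received no treatment, with thymi of 4 to 7 mice pooled. The wild type (WT) was set against Bcl6KO, written CDCre;Bcl6F/F in the series, which lacks the transcriptional repressor BCL6 in Cre-expressing cells. Neither the promoter behind the Cre nor the exons removed were given in the sources used here. Tetramer-binding cells with T cell receptor beta were sorted as stage 0 (ST0), positive for CD24 and negative for CD44, or stage 1 (ST1), negative for both. Each of WT ST0, WT ST1, Bcl6KO ST0 and Bcl6KO ST1 had 3 libraries. Whether the 3 libraries of a group are separate pools is stated nowhere in the labels, and p-values therefore measure a spread between libraries that may be technical.

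MYC is a helix-loop-helix transcription factor that binds DNA as a dimer with MAX and raises the expression of genes for ribosome assembly, metabolism and cell division. MXD proteins, MXI1 and MNT also pair with MAX, occupy the same E-box motif and recruit SIN3 corepressors, so both kinds of dimer draw on one pool of MAX. In the thymus, MYC is known to be needed for the expansion of early iNKT cells, and Odc1, which encodes the first enzyme of polyamine synthesis, is a classic MYC target.

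Library totals ran from 4129919 to 8038717 counts, and 14860 to 22028 genes had at least 1 count. The Bcl6KO ST0 libraries had the fewest genes (14860 to 17734), and there 1 gene, Sp100, took 10.8% to 23.9% of counts against at most 5.03% in every other library. Summed T cell and iNKT identity markers stood at 3369 to 6290 CPM (counts per 1e+06 counts of the library total, scaled between libraries by the TMM method), with all 8 detected in every group. The sum does not measure iNKT identity by itself, since Cd3e alone averaged 1060 to 1687 CPM in the groups. Zbtb16 averaged 166 ± 60.9 and 50.5 ± 43.0 CPM in WT and Bcl6KO ST0, and 544 ± 120 and 356 ± 73.9 CPM at ST1. Trav11 averaged 247 to 307 CPM in the groups and Traj18 0.928 to 2.70 CPM. Cd24a averaged 167 and 242 CPM in WT and Bcl6KO ST0 and 5.84 and 1.33 CPM at ST1, while Cd44 averaged at most 16.4 CPM in any group. Bcl6 averaged 288 and 607 CPM in WT and Bcl6KO ST0, and 7.18 and 32.0 CPM at ST1. The Bcl6 count covers the whole gene, so it is no check of the deletion or of the labels. Since the RNA is bulk, fewer cells of a type and less RNA per cell cannot be told apart.

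The binding word shared by MYC and its antagonists, the E-box CACGTG, was looked up in the RefSeq promoter windows (GRCm38.p6, 250 bases before to 50 after each start). This motif is its own reverse complement, so 1 search covers both strands. A window was given for 6 of the 7 genes, Myc having none in the table, and 3 of these 6 held the motif: Max, Mxd4 and Mnt. It occurs in 7.15% of all 32851 windows and in 8.09% of 27025 genes. The 30 bases around each match are shown because they carry the word for which the dimers compete in genes of the network itself, read 5′ to 3′ on the gene's strand with the motif in capitals.
Max, chr12:76962234-76962263, minus strand: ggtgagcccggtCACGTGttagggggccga
Mxd4, chr5:34187912-34187941, minus strand: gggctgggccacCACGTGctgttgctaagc
Mnt, chr11:74830789-74830818, plus strand: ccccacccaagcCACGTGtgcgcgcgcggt
In Max the match spans the start itself, while it begins 219 bases before the start in Mxd4 and 123 before it in Mnt. The windows of Mycn, Odc1 and Mxi1 (3 windows) did not hold these letters. Matches are a description of sequence, and no binding was measured here.

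Myc was well expressed in all 12 libraries, and its differences between genotypes and between stages did not exceed the spread between libraries. Of the 7 genes, 6 passed the filter on low counts and were tested, and 0 of them passed in any of 7 comparisons. Mycn was nearly absent. The spread between libraries was wider for Mxi1 and Mnt than for Myc, Max, Mxd4 and Odc1. Odc1 came nearest to a stage difference and Mxd4 to a genotype difference, and neither passed.

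The share of all 15704 tested genes that passed at an adjusted p under 0.05 gives the background for these results. For Bcl6KO against WT it was 0.0191% at ST0 and 0% at ST1, where 2.57% had an unadjusted p under 0.05. For ST1 against ST0 it was 0.433% in WT, 0.675% in Bcl6KO and 3.46% averaged over genotypes. It was 0% for the difference between the stages' genotype effects, with 7.78% at an unadjusted p under 0.05, and 0.00637% for the genotype averaged over stages. A count of 0 among 6 genes lies at these backgrounds, and few genes of any kind passed.

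Myc (ENSMUSG00000022346, chromosome 15, 61985391 to 61990374, plus strand, mm10) stood at 223, 105 and 200 CPM in the 3 WT ST0 libraries. In WT ST1 it stood at 146, 205 and 316 CPM. In Bcl6KO ST0 the values were 144, 331 and 271 CPM, and in Bcl6KO ST1 they were 94.5, 189 and 225 CPM. The highest and lowest libraries of all 12 were both Bcl6KO, 1 at each stage, and all 4 groups overlapped. Every library held 476 to 1747 Myc reads, and the spread within a group was 2.13-fold to 2.38-fold. Counting error of the reads alone was small beside that spread, while the number of RNA molecules behind the reads was not measured. Group means were 176 ± 62.9 CPM in WT ST0, 222 ± 86.1 in WT ST1, 249 ± 95.5 in Bcl6KO ST0 and 170 ± 67.4 in Bcl6KO ST1 (SD, n = 3 each). In the order of these means, each pair of neighbours differed by less than the larger SD.

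**Figure D1:**
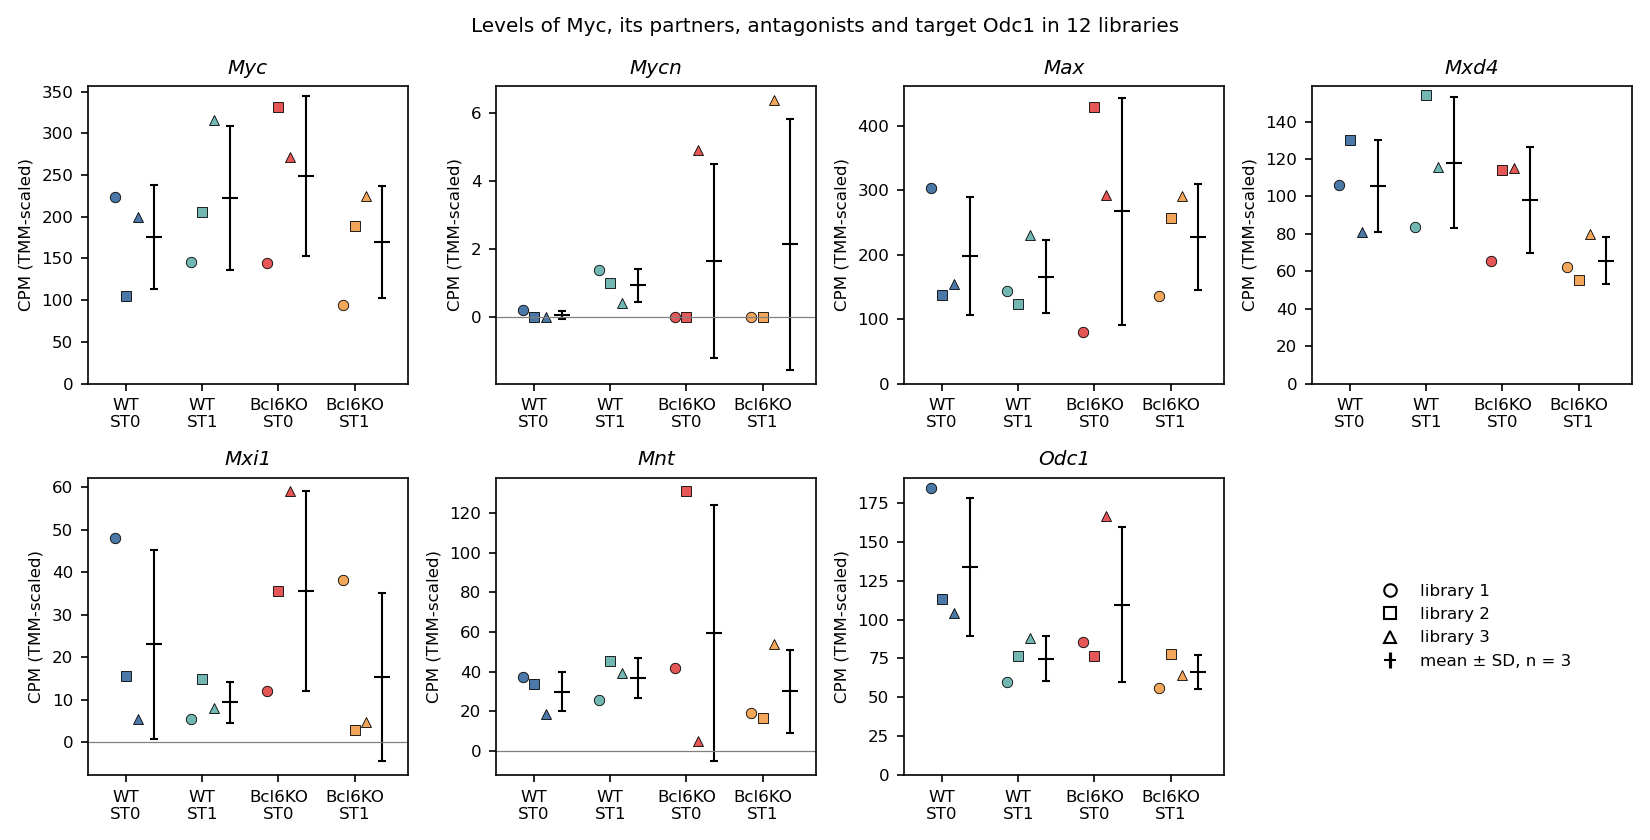
TMM-scaled CPM (y axis) of the 7 genes in each library (points, shaped by library number) by group (x axis), with bars for mean ± SD of 3 libraries; a panel's axis extends below 0 only to hold the SD bar. Myc lies between 94.5 and 331 CPM with all groups overlapping, and Mycn is at 0 in 6 of 12 libraries.

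At ST0 the Bcl6KO libraries differed from WT in Myc by a log2 fold change of 0.50 (SE 0.44, 95% interval -0.44 to 1.44, edgeR quasi-likelihood F-test, Benjamini-Hochberg adjusted p = 0.645). At ST1 the difference was -0.39 (SE 0.44, interval -1.33 to 0.55, edgeR adjusted p = 1.00). ST1 against ST0 gave 0.34 in WT (SE 0.44, interval -0.60 to 1.27, edgeR adjusted p = 0.932) and -0.55 in Bcl6KO (SE 0.44, interval -1.49 to 0.39, edgeR adjusted p = 0.578). The difference between the Bcl6KO effects of the stages was -0.89 (SE 0.62, interval -2.22 to 0.44, edgeR adjusted p = 0.786). Averaged over stages, the interval of the genotype difference in Myc reached from 0.655-fold to 1.64-fold (log2 0.05, edgeR adjusted p = 0.977), so differences smaller than this were not resolved. Averaged over genotypes, the interval for ST1 against ST0 was 0.586-fold to 1.47-fold (log2 -0.11, edgeR adjusted p = 0.908).

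**Figure D2:**
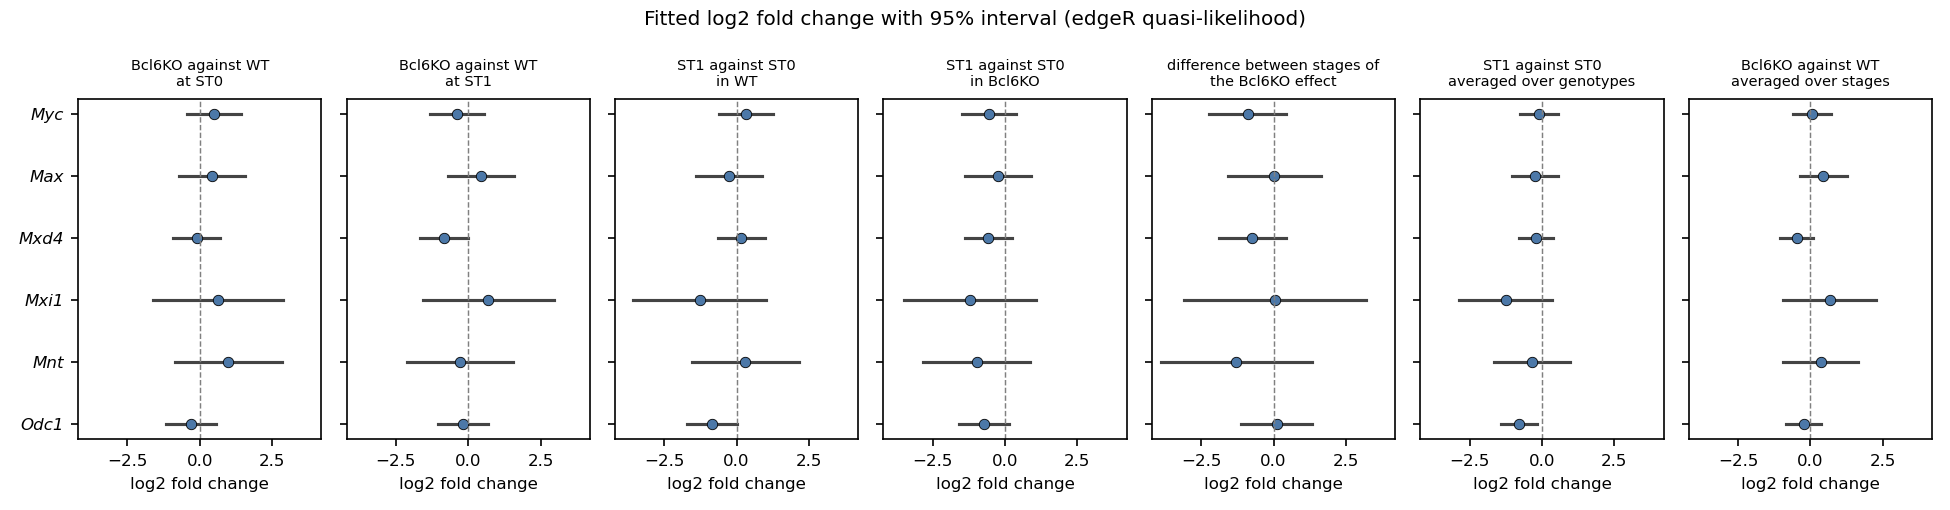
Fitted log2 fold changes (x axis; points) with 95% intervals (lines) for the 6 tested genes (rows) in the 7 comparisons (panels), from edgeR's quasi-likelihood fit of all 12 libraries. The intervals of Mxi1 and Mnt are the widest, and 2 intervals leave out 0: Mxd4 at ST1 (-1.67 to -0.02) and Odc1 averaged over genotypes (-1.40 to -0.18).

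The scaling of the totals sets a constant that all genes share. For Bcl6KO against WT at ST0, CPM on unscaled totals shifts every gene by -0.47 on the log2 scale. The shift is 0.50 for the stages in Bcl6KO and at most 0.09 in size for the stages in WT. On unscaled totals Myc averaged 182, 248, 183 and 179 CPM in WT ST0, WT ST1, Bcl6KO ST0 and Bcl6KO ST1, and the log2 difference at ST0 was 0.03 in place of 0.50. With these constants 6 of the 42 fitted differences, all of them small and none past the threshold, had the other sign, namely Max for the genotypes at ST0 (-0.04) and for the stages in Bcl6KO (0.27), the stage averages of Myc (0.19), Max (0.06) and Mxd4 (0.09), and the genotype average of Myc (-0.22).

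Within groups, Myc ran against the number of genes detected. In 4 of 4 groups its lowest value was in the library with the most genes detected, and in 3 of 4 its highest was in the library with the fewest. WT ST0 library 2 had 21607 genes and 105 CPM of Myc, whereas library 1 had 18417 genes and 223 CPM. Among Bcl6KO ST0 libraries, library 2 had 14860 genes and 331 CPM of Myc, and library 1 had 17734 genes and 144 CPM. Max had its lowest value in the library with most genes in 3 groups and its highest in that with fewest also in 3, though not in the same 3. The corresponding numbers of groups were 2 and 3 for Odc1, 2 and 0 for Mxd4, 2 and 1 for Mxi1, and 1 and 2 for Mnt. How many of all tested genes showed the same order was not counted, so the pattern is not shown to be particular to Myc. The part of library complexity in the spread of Myc was not tested.

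**Figure D3:**
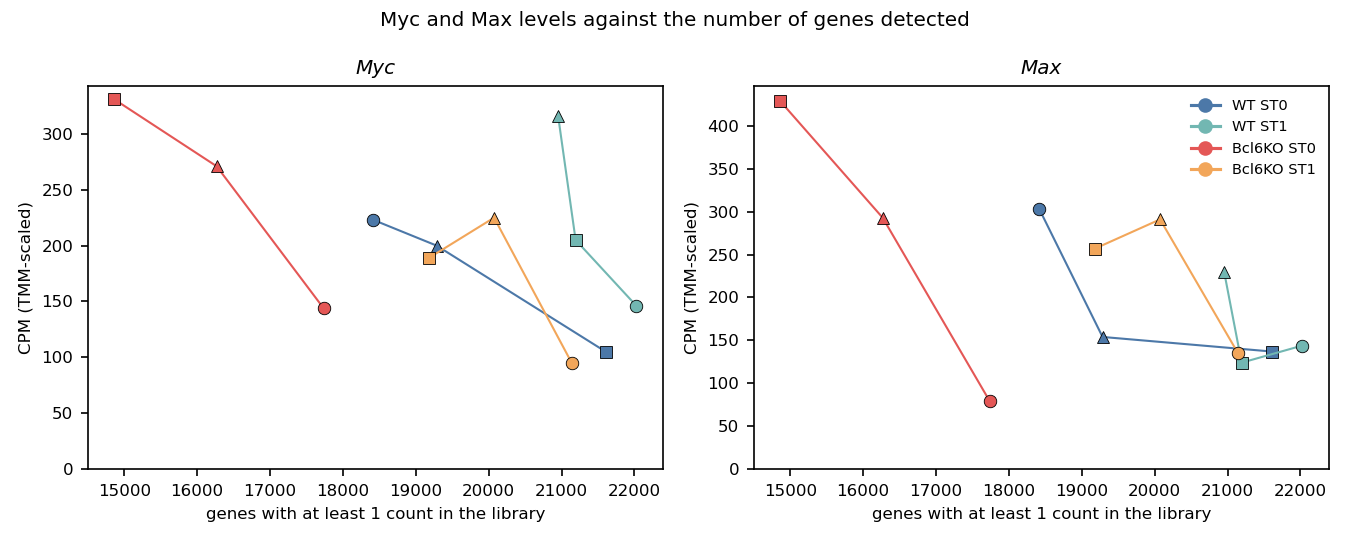
Myc and Max levels (y axes, TMM-scaled CPM) against the number of genes with at least 1 count (x axes) for 12 libraries, coloured by group and shaped by library number, with lines joining the 3 libraries of a group in order of the x axis. Within every group the library with the most genes detected has the lowest Myc, from 94.5 CPM in Bcl6KO ST1 to 146 CPM in WT ST1.

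Mycn (ENSMUSG00000037169, chromosome 12, 12936093 to 12941914, minus strand), the paralogue best known from neural tissue and early progenitors, had 0 to 32 reads per library. In WT ST0 it had 1, 0 and 0 reads and in WT ST1 it had 7, 5 and 2. In Bcl6KO it had 0, 0 and 25 reads at ST0 and 0, 0 and 32 reads at ST1. The Bcl6KO reads were therefore all in library 3 of each stage, at 4.92 and 6.39 CPM, and a count of 0 allows up to 0.569 to 0.615 CPM. Mycn failed the filter and was not tested in the main fit. Fitted with all 30509 genes unfiltered, it did not pass, with edgeR adjusted p between 0.450 and 1.00 over the comparisons. Its mean over the 12 libraries was 0.362 CPM per exonic kilobase, against 75.2 for Myc. Mycl, the third MYC gene, had 0 reads in all 12 libraries.

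Max (ENSMUSG00000059436, chromosome 12, 76937269 to 76962201, minus strand), the partner shared by MYC and its antagonists, stood at 303, 137 and 154 CPM in WT ST0 and at 144, 124 and 230 CPM in WT ST1. In Bcl6KO ST0 it stood at 79.5, 429 and 293 CPM, which holds both its lowest and its highest value of all libraries. In Bcl6KO ST1 it stood at 135, 257 and 291 CPM. The Bcl6KO ST0 libraries thus spanned 5.40-fold and covered the range of every other group. Max differed between genotypes by a log2 fold change of 0.43 at ST0 (SE 0.53, interval -0.71 to 1.57, edgeR adjusted p = 0.763) and 0.46 at ST1 (SE 0.53, interval -0.68 to 1.60, edgeR adjusted p = 1.00). Without Bcl6KO ST0 library 2 the ST0 value became -0.10. Between stages it differed by -0.26 in WT (interval -1.39 to 0.88, edgeR adjusted p = 0.967) and -0.23 in Bcl6KO (interval -1.37 to 0.91, edgeR adjusted p = 0.875).

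The ratio of Myc to Max within a library does not depend on the scaling. Per exonic kilobase, its log2 value was -0.04, 0.02 and 0.79 in WT ST0 and 0.43, 1.13 and 0.87 in WT ST1. In Bcl6KO it was 1.26, 0.03 and 0.29 at ST0 and -0.11, -0.04 and 0.03 at ST1. The Bcl6KO ST1 libraries were the closest to each other (SD 0.07), and their ratios all lay below those of WT ST1, while they overlapped WT ST0. These ratios come from 2 members whose choice and values are described here without a test. Their zero point depends on the exon lengths, since Max has 3598 exonic bases in the full annotation and 1958 in the basic set. Over 12 libraries Myc averaged 75.2 and Max 59.6 CPM per kilobase with the full annotation, but 83.5 and 110 with the basic set, which turns their order.

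**Figure D4:**
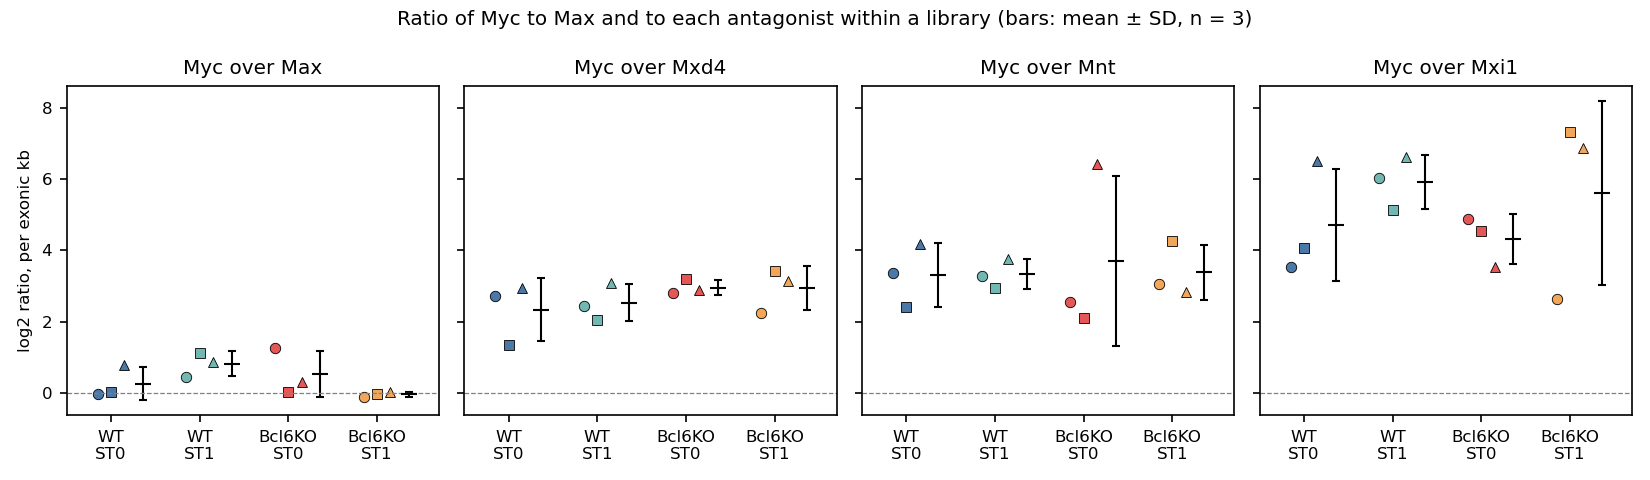
Log2 ratio of Myc to Max and to each antagonist per exonic kilobase (y axis) in each library by group (x axis), points shaped by library number as 1 (circle), 2 (square) and 3 (triangle), with bars for mean ± SD of 3. Myc over Mxd4 spans 1.33 to 3.42, and Myc over Mnt reaches 6.44 in 1 Bcl6KO ST0 library.

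Mxd4 (ENSMUSG00000037235, chromosome 5, 34173883 to 34187720, minus strand) encodes a MAX-binding repressor associated with cells leaving proliferation. It stood at 106, 130 and 80.9 CPM in WT ST0 and at 83.9, 154 and 116 CPM in WT ST1. In Bcl6KO it stood at 65.3, 114 and 115 CPM at ST0 and at 62.4, 55.1 and 79.7 CPM at ST1. All 3 Bcl6KO ST1 libraries were below all 3 WT ST1 libraries. The log2 fold change at ST1 was -0.84 (SE 0.38, interval -1.67 to -0.02) and did not pass (edgeR adjusted p = 1.00, though the interval left out 0). Mxd4 was the 1 tested gene of 6 with lower and not overlapping values in that comparison, against a background of 7.44% of tested genes. At ST0 the genotype difference was -0.11 (SE 0.38, interval -0.92 to 0.70, edgeR adjusted p = 0.934), and the Bcl6KO effects at the 2 stages differed by -0.73 (SE 0.54, interval -1.89 to 0.42, edgeR adjusted p = 0.808). Of the Mxd4 exonic bases 6.06% overlap Gm42846, which had 5 to 152 reads per library, and whether counting used strand was not given in the sources used here.

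Mxi1 (ENSMUSG00000025025, chromosome 19, 53310518 to 53375810, plus strand), which encodes another MAX-binding repressor of the MXD family, was the least steady tested member by BCV. It stood at 48.1, 15.6 and 5.51 CPM in WT ST0 and at 5.58, 14.8 and 8.0 CPM in WT ST1. In Bcl6KO it stood at 12.2, 35.6 and 59.1 CPM at ST0 and at 38.1, 2.98 and 4.79 CPM at ST1. A single high library, number 1, set the mean of Bcl6KO ST1, and the same was true of library 1 in WT ST0. ST1 against ST0 averaged over genotypes was -1.25 on the log2 scale (SE 0.75, interval -2.86 to 0.36, edgeR adjusted p = 0.419). It was -2.24 without Bcl6KO ST1 library 1 and -0.71 without WT ST0 library 1. The genotype difference was 0.63 at ST0 (interval -1.62 to 2.88, edgeR adjusted p = 0.837) and 0.69 at ST1 (interval -1.57 to 2.96, edgeR adjusted p = 1.00). These intervals reach several fold either way, and without Bcl6KO ST1 library 1 the ST1 value was -1.26. Of its exonic bases 2.84% overlap Gm10197, which had at most 13 reads in a library.

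Mnt (ENSMUSG00000000282, chromosome 11, 74830920 to 74845725, plus strand) encodes a MAX-dimer repressor present in resting and dividing cells alike. It stood at 37.2, 33.9 and 18.7 CPM in WT ST0 and at 25.5, 45.6 and 39.4 CPM in WT ST1. In Bcl6KO ST0 it stood at 41.9, 131 and 5.32 CPM, which again holds the extremes of all 12 libraries. The Bcl6KO ST1 values were 19.3, 16.7 and 54.1 CPM. Between the extreme libraries lay a 24.6-fold difference, from 27 to 690 reads, inside a single group. The genotype difference at ST0 was 0.99 (SE 0.86, interval -0.86 to 2.84, edgeR adjusted p = 0.641) and at ST1 it was -0.29 (SE 0.85, interval -2.13 to 1.54, edgeR adjusted p = 1.00). Without Bcl6KO ST0 library 2 the ST0 value became -0.35. ST1 against ST0 gave 0.30 in WT (interval -1.54 to 2.14, edgeR adjusted p = 0.98) and -0.98 in Bcl6KO (interval -2.84 to 0.87, edgeR adjusted p = 0.621).

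Spread among the libraries can be put as the biological coefficient of variation (BCV), the fitted spread of a gene beyond counting error. It was 0.373 for Mxd4, 0.387 for Odc1, 0.411 for Myc and 0.479 for Max. Genes of similar abundance (3802 genes with a mean of 50 to 400 CPM) had a median of 0.447, with quartiles of 0.383 and 0.532, so Myc, Max and Odc1 lay within the quartiles and Mxd4 just below them. Mnt had a BCV of 0.723 and Mxi1 of 0.862, near the median of 0.780 over all 15704 tested genes.

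Per exonic kilobase each antagonist stood below Myc in every library with either exon set. Myc exceeded Mxd4 by a log2 ratio of 1.33 to 3.42, with group means of 2.33 ± 0.88 in WT ST0, 2.53 ± 0.52 in WT ST1, 2.95 ± 0.21 in Bcl6KO ST0 and 2.94 ± 0.62 in Bcl6KO ST1 (SD, n = 3 each). All 4 groups overlapped in this ratio. Myc over Mnt averaged 3.31 to 3.70 in the groups, with an SD of 2.38 in Bcl6KO ST0, and Myc over Mxi1 averaged 4.32 to 5.93. Among the 3 antagonists, Mxd4 gave a median of 58.2% of their summed level per kilobase (range 28.6% to 66.3%), Mnt 33.3% (4.92% to 60.3%) and Mxi1 8.16% (3.22% to 37.1%). Mnt had its highest share in Bcl6KO ST0 library 2 and Mxi1 its highest in Bcl6KO ST0 library 3. Other MAX partners lay outside this sum, so the shares do not rank Mxd4 among all competitors of Myc. Mxd1 averaged 22.9 ± 17.2 CPM per kilobase in Bcl6KO ST0 and 2.90 to 6.02 in the other groups. Mga averaged 24.0 to 31.6 in the groups, against 7.74 to 13.9 for Mxd4. With the basic annotation the mean over 12 libraries was 24.9 for Mxd4 in place of 11.4 CPM per kilobase, so the shares depend on the exon set, and Myc over Mxd4 ran from 0.35 to 2.45 with the basic set. Placed among all tested genes per kilobase, Myc lay above 96.9%, Max above 96.0%, Odc1 above 89.4%, Mxd4 above 70.4%, Mnt above 61.3% and Mxi1 above 31.6%.

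Odc1 (ENSMUSG00000011179, chromosome 12, 17544794 to 17551505, plus strand), which encodes ornithine decarboxylase, stood at 185, 113 and 104 CPM in WT ST0 and at 59.6, 76.6 and 88.4 CPM in WT ST1. In Bcl6KO it stood at 85.4, 76.8 and 167 CPM at ST0 and at 56.0, 77.7 and 64.3 CPM at ST1. All WT ST1 libraries were below all WT ST0 libraries, while in Bcl6KO the stages overlapped by 1 ST1 library at 77.7 CPM. Odc1 was the 1 tested gene of 6 with lower and not overlapping values in WT, against a background of 9.06% of tested genes. In Bcl6KO 0 of the 6 genes separated the stages, against 17.5% of tested genes, and 0 of the 6 separated the genotypes at ST0, against 12.6%. The log2 fold change for ST1 against ST0 was -0.84 in WT (SE 0.40, interval -1.70 to 0.02, edgeR adjusted p = 0.610) and -0.73 in Bcl6KO (SE 0.40, interval -1.60 to 0.13, edgeR adjusted p = 0.389). Without Bcl6KO ST0 library 3 the Bcl6KO value was -0.30. Averaged over genotypes it was -0.79 (SE 0.28, interval -1.40 to -0.18) and did not pass (edgeR adjusted p = 0.154). Over the alternative analyses that adjusted p ran from 0.0513, with DESeq2, to 0.327. Odc1 was within the 18.3% of all tested genes that reached an unadjusted p under 0.05 in this comparison. Genotype differences in Odc1 were -0.29 at ST0 (interval -1.15 to 0.57, edgeR adjusted p = 0.794) and -0.18 at ST1 (interval -1.04 to 0.68, edgeR adjusted p = 1.00).

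Between stages in WT, Myc averaged 176 and then 222 CPM and Odc1 134 and then 74.9 CPM, neither difference passed, and the genes were not tested against each other. The libraries of the stages also differed in markers of double-positive thymocytes, the precursors of iNKT cells. Their 6 genes summed to 316 to 1318 CPM in WT ST0 and 652 to 846 CPM in Bcl6KO ST0, with all 6 detected. At ST1 they summed to 8.0 to 13.7 CPM in WT, with Rag2 at 0, and to 24.4 to 63.4 CPM in Bcl6KO. Genes listed as gamma-delta T cell markers, chiefly Tcrg-C1 and Tcrg-C2, summed to 1086 to 3107 CPM in WT ST1 and 526 to 688 CPM in Bcl6KO ST1. At ST0 they summed to 15.7 to 936 CPM in WT and 9.10 to 144 CPM in Bcl6KO, with all 5 detected in every group. Tcrg-C1, Tcrg-C2, Sox13 and Trgv2 averaged higher at ST1 than at ST0 in both genotypes, but Trdc averaged lower. Its means were 5.12 ± 6.25 and then 0.267 ± 0.114 CPM in WT, and 39.6 ± 37.4 and then 6.19 ± 9.86 CPM in Bcl6KO. The part of these genes in the Odc1 and Mxd4 values was not tested. Summed B cell markers stayed within 26.4 to 171 CPM, myeloid markers within 13.8 to 125 CPM and erythroid markers within 0 to 23.4 CPM. Thymic epithelial markers summed to 25.4 to 80.5 CPM. The keratin genes Krt5 and Krt8 and the globin genes Hba-a1 and Hba-a2 were at 0 throughout, and Adgre1 in 3 groups. Other listed genes were detected, so these cell types are not shown to be absent. In the groups Psmb11 averaged 24.6 to 37.9 CPM, Ighm 33.1 to 128 CPM, Itgam 2.95 to 38.2 CPM and Fcer1g 2.20 to 18.1 CPM. Epcam averaged 10.1 and 11.9 CPM in WT and Bcl6KO ST0, and 1.41 and 0.0666 CPM at ST1.

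Of 7 other genes in the MYC, MAX and MLX network, 5 were tested and 0 passed in any comparison. Mxd1, a repressor induced as cells differentiate, stood at 16.7, 25.2 and 19.7 CPM in WT ST0 and at 290, 148 and 48.2 CPM in Bcl6KO ST0. All 3 Bcl6KO ST0 values lay above those of WT ST0, as was the case for 4.67% of tested genes, and the log2 fold change was 2.98 (SE 0.86, edgeR adjusted p = 0.176). At ST1 the Mxd1 values were 27.7, 56.1 and 43.9 CPM in WT and 7.95, 73.1 and 9.18 CPM in Bcl6KO, with overlap (log2 -0.50, edgeR adjusted p = 1.00). The Bcl6KO effects on Mxd1 at the 2 stages differed by -3.48 (SE 1.16, edgeR adjusted p = 0.530).

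Mxd3, an MXD gene known for expression in dividing cells, stood at 11.6, 8.29 and 21.5 CPM in WT ST1 and at 33.4, 36.6 and 33.1 CPM in Bcl6KO ST1 without overlap (log2 1.32, SE 0.75, edgeR adjusted p = 1.00), as 5.87% of tested genes were higher without overlap there. Mlx, the MAX-like partner of the MONDO factors, stood at 13.6 to 18.3 CPM in the WT libraries and at 4.59 to 13.1 CPM in the Bcl6KO libraries. Of all tested genes, 7.44% were lower without overlap at ST1, and 12.6% did not overlap in either direction at ST0. How many separated the genotypes at both stages was not counted. Mlx did not pass in any comparison. The genotype difference of Mlx averaged over stages was -0.96 (SE 0.52, edgeR adjusted p = 0.522), and 19.3% of its exonic bases overlap another gene. Mga, a large MAX partner found in polycomb complexes, averaged 441, 369, 484 and 368 CPM in WT ST0, WT ST1, Bcl6KO ST0 and Bcl6KO ST1 (largest SD 179), and Mlxip, a MONDO factor, averaged 144, 156, 192 and 137 CPM (largest SD 70.6). Mlxipl, the glucose-responsive factor of the liver, had 0 to 2 reads per library, at most 0.394 CPM.

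**Figure D5:**
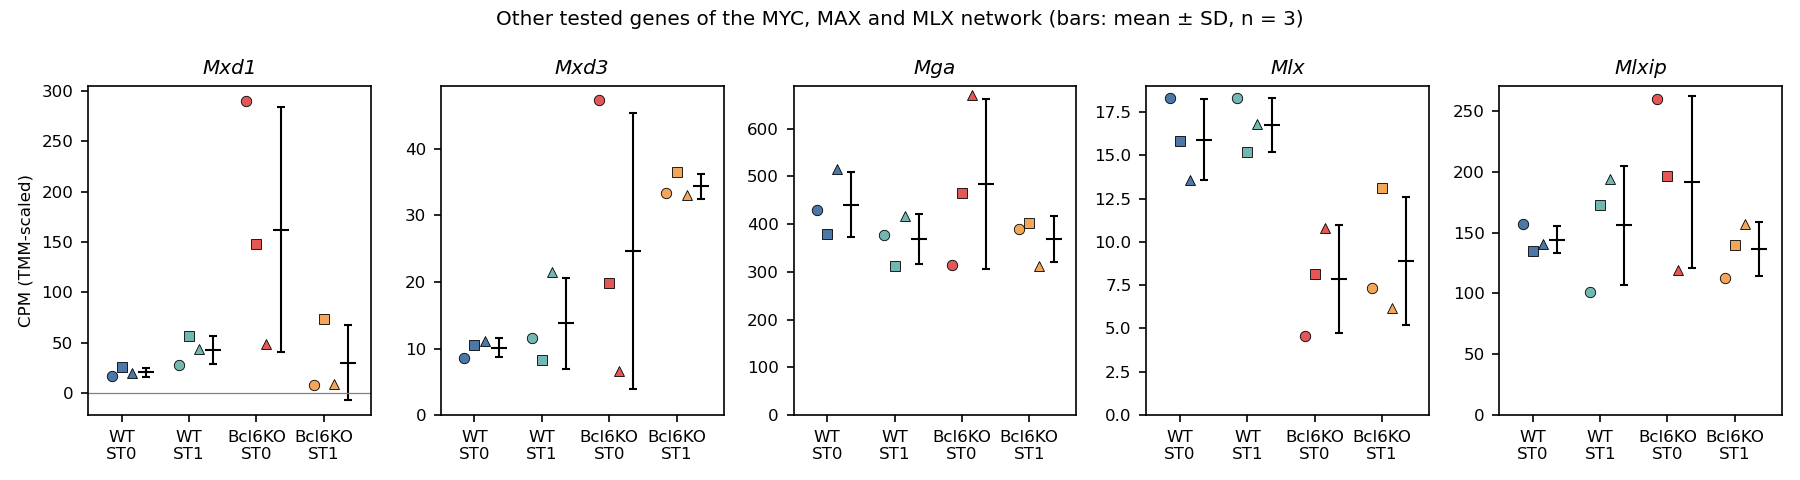
TMM-scaled CPM (y axes) of 5 further network genes in each library by group (x axis), points shaped by library number as 1 (circle), 2 (square) and 3 (triangle), with bars for mean ± SD of 3. Mxd1 reaches 290, 148 and 48.2 CPM in Bcl6KO ST0 against at most 25.2 CPM in WT ST0.

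Textbook lists around MYC were read against the same fit, with medians given beside those of all tested genes. Of 36 MYC-induced genes 35 were tested, and 1 rose in Bcl6KO ST0 against WT ST0, as did 0.0191% of all tested genes. That gene was Ccnd2, the D-type cyclin that opens the G1 phase, at 704, 696 and 760 CPM in WT ST0 and 1740, 2355 and 2627 CPM in Bcl6KO ST0 (log2 1.64, SE 0.21, edgeR adjusted p = 0.0340). The Ccnd2 call held in 9 of 19 alternative analyses, with log2 values of 1.5 to 1.78 and adjusted p of 4.40e-07 to 0.247, and it was lost without any 1 WT ST0 library and without Bcl6KO ST0 library 2 or 3. Leaving out WT ST1 library 1 or Bcl6KO ST1 library 1 or 3 also ended it. A share of 7.86% of Ccnd2 exonic bases overlaps another gene. The median of the 35 was 0.27 for this comparison against -0.01 over all genes, with 24 positive, and 6 had an unadjusted p under 0.05, where 14.7% of all genes did. For the genotypes at ST1 the median was -0.13 against 0.02, for the stages 0.13 against 0.00 in WT and -0.35 against 0.01 in Bcl6KO, and 0 genes passed.

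Of 8 MYC-repressed genes 6 were tested and 0 passed, with 2 of 6 positive for the genotypes at ST0 and 5 of 6 at ST1, and 3 of 6 positive for the stages in WT and 4 of 6 in Bcl6KO. The median was 0.45 for the genotypes at ST1 against 0.02 over all genes and 0.22 for the stages in WT against 0.00, and no median is given for the comparisons with Bcl6KO ST0, where 1 gene was at 0 in the whole group. Among them Cdkn1b, a brake on cyclin-dependent kinases, averaged 76.5, 71.8, 39.8 and 114 CPM in WT ST0, WT ST1, Bcl6KO ST0 and Bcl6KO ST1 (log2 -0.94 at ST0, edgeR adjusted p = 0.477). Among 16 polyamine genes 0 passed, and the median for the genotypes was 0.46 at ST0 against -0.01 over all genes and -0.02 at ST1 against 0.02. For the stages it was 0.21 in WT against 0.00 and -0.21 in Bcl6KO against 0.01. Eif5a, the factor that carries the polyamine-derived hypusine, averaged 260 ± 35.4 CPM in WT ST0 and 432 ± 74.8 CPM in Bcl6KO ST0 (log2 0.73, SE 0.23, edgeR adjusted p = 0.203).

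All 13 corepressors and coactivators were tested and 0 passed, with Ncor1, a nuclear receptor corepressor, at 891, 626, 922 and 651 CPM in the same order of groups. Nor did any of the 10 regulators of MYC protein stability pass, and Huwe1, a ubiquitin ligase acting on MYC, averaged 738 to 809 CPM in the groups. Of 20 cell cycle genes 0 passed in any comparison, while for the genotypes at ST0 19 of 20 were positive with a median of 1.35 against -0.01 over all genes. Of the 20, 11 had an unadjusted p under 0.05 in that comparison, as did 14.7% of all tested genes. The lean was not particular to ST0. For the genotypes at ST1 18 of 20 were positive, with a median of 0.52 against 0.02 over all genes. For the stages 19 of 20 were positive in WT (median 0.70 against 0.00) and 10 of 20 in Bcl6KO (0.02 against 0.01). Mki67, the proliferation marker, averaged 375 ± 57.5 CPM in WT ST0, 970 ± 462 in WT ST1, 1845 ± 382 in Bcl6KO ST0 and 2275 ± 944 in Bcl6KO ST1 (SD, n = 3 each). Its log2 difference between genotypes at ST0 was 2.30 (SE 0.40, edgeR adjusted p = 0.10) and that of Myc was 0.50. Neither difference passed, and the genes were not tested against each other.

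The genes most like each member over the 12 libraries were found as the smallest mean absolute difference in log2 CPM after centring, among 8240 genes. For Myc these were Ash2l (0.23), a subunit of histone H3 lysine methyltransferases, Brf1 (0.25), a subunit of the RNA polymerase III factor TFIIIB, Gimap1 (0.26), Raver1 (0.26) and Map4 (0.27), where the median gene was at 0.83. Nearest to Max were Ubxn1 (0.19), Pik3r5 (0.24) and the chromatin remodeller Smarca4 (0.27). Among the antagonists, Mxd4 had Zbtb38 (0.22) and Rsrp1 (0.25), while Mnt had no gene nearer than Myo18a and Leng1 (0.40 each) and Atp5d (0.41). Mxi1 had no gene nearer than AA465934 (0.50), followed by Slc2a12 (0.62) and Rsrc1 (0.63). For Odc1 they were Top1 (0.22), Ucp2 (0.23) and Cbl (0.23). Within the network, Max was the nearest tested member to Myc, at 0.42 and rank 282, and Mxi1 the farthest at 1.23. All these distances come from the same 12 libraries and carry their shared depth and complexity.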

How the data were processed

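RNA-seq counts of 12 libraries were analysed. Each deposited file holds unnormalized counts of 1 library. The tools named in the submitters' processing notes are bcl2fastq, TopHat2, Bowtie2 and DESeq, with build mm10. The counting program, annotation and strand setting were not given in the sources used here. Reads of overlapping genes may therefore be shared. Per the labels' protocols, RNA came from sorted cells and libraries from a kit for very low inputs. Symbols, coordinates and exon lengths came from GENCODE M21, which matched 48312 of 48672 IDs.

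Levels are CPM after TMM scaling (trimmed mean of M-values). Genes passing filterByExpr (15704) entered edgeR 4.0.16 (R 4.3.3) and its two-sided quasi-likelihood F-test with robust dispersion over 12 libraries, 1 mean per group and 8 residual degrees of freedom. Benjamini-Hochberg adjustment ran over all tested genes at 0.05. SE was taken as |log2 fold change| over √F, and 95% intervals from the t distribution. BCV, fitted in common, was 0.835. Libraries of a group differed beyond sampling noise (chi-square per gene 27.6 to 170). The code was tested on simulated counts. A floor of 3 counts covers counting error only.

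The members and lists were chosen with earlier results of these data known. Named were all members and network genes, from each other list up to 2 risen and 2 fallen genes past the threshold by lowest p or else the gene with the highest mean, and the 3 genes (5 for Myc) with the nearest profile at a mean of at least 10 CPM. Some genes that this rule or the marker lists hold are not reported here. Alternatives were RLE scaling, DESeq2 1.42.0, limma 3.58.1 voom with quality weights, no filter, Sp100 left out, a replicate block, only the groups compared and leaving out each library. ATAC-seq libraries were not analysed here.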

Additional observations from a re-analysis of the deposited data

How the results depend on the processing

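Of 780 alternative values for the 42 fitted differences, 731 had the same direction, 49 reversed and 0 passed the threshold. Some of these fits left out a library of a group that was not being compared, which tests that difference little. A value of 0.00, as for Odc1 between genotypes at ST0, was counted as the same direction. Unscaled totals were not among the 780. Among the tested members, Mxi1 had as few as 15 reads (Bcl6KO ST1 library 2) and Mnt as few as 27 (Bcl6KO ST0 library 3). The part of low depth in the spread between libraries was not tested. The counts of called genes depended on the tool far more. For Bcl6KO against WT at ST0 (3 genes), DESeq2 called 924, voom 0, the fit without a filter 103 and the fit of only the groups compared 0. At ST1 (0 genes, while 404 of those tested had an unadjusted p under 0.05), DESeq2 called 20, voom 5 and the unfiltered fit 11. For ST1 against ST0 in WT (68 genes) these 3 gave 368, 301 and 142. In Bcl6KO (106 genes) they gave 1309, 13 and 309, and only the groups compared gave 3. For the difference between stages of the Bcl6KO effect (0 genes, while 1221 of those tested had an unadjusted p under 0.05), DESeq2 called 130 and the unfiltered fit 7. For ST1 against ST0 averaged over genotypes (544 genes) DESeq2 and the unfiltered fit called 1495 and 830, and for the genotypes averaged over stages (1 gene) 446 and 88. Without a filter more genes of low counts were tested; for the other settings the cause was not tested.

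Leaving out 1 library gave 0 (WT ST0 library 1, among others) to 133 calls (Bcl6KO ST0 library 1) for the genotypes at ST0, and 0 to 1 at ST1. It gave 20 (WT ST1 library 1) to 139 calls (WT ST0 library 2) for the stages in WT, and 7 to 277 in Bcl6KO. Averaged over genotypes the stages gave 193 to 708 calls, and averaged over stages the genotypes gave 0 to 62.

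With voom, log2 values reversed to -0.28 for Mnt between genotypes at ST0 and -0.22 averaged over stages, to -0.04 for Mxd4 between stages in WT, and to 0.27 for both Max and Mnt between stages in Bcl6KO. They also reversed to 0.07 for Max and 0.21 for Mnt between stages averaged over genotypes, and to 0.11 for Mnt and -0.62 for Mxi1 in the difference between stages of the Bcl6KO effect. Leaving out 1 library reversed these signs, given as lowest to highest log2 value. Between genotypes at ST0 the values ran from -0.10 to 0.86 for Max, -0.28 to 0.10 for Mxd4 and -0.35 to 1.52 for Mnt, and at ST1 from -1.26 to 1.18 for Mxi1. Averaged over stages they ran from -0.09 to 0.22 for Myc, -0.33 to 1.22 for Mxi1 and -0.32 to 0.61 for Mnt. Between stages in WT they ran from -0.56 to 0.16 for Max and -0.07 to 0.36 for Mxd4, and in Bcl6KO from -0.65 to 0.30 for Max and -1.70 to 0.35 for Mnt. Averaged over genotypes they ran from -0.27 to 0.03 for Myc, -0.45 to 0.01 for Max and -0.70 to 0.32 for Mnt. For the difference between stages of the Bcl6KO effect they ran from -0.40 to 0.57 for Max, -1.85 to 0.64 for Mxi1, -2.01 to 0.06 for Mnt and -0.17 to 0.55 for Odc1.

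No pairing by library number was seen, though the labels do not say what libraries of the same number share. Same-numbered libraries of different groups had deviations correlated at -0.08 to 0.12, with 1 of 18 pairs over 0.1. Other pairs were correlated at -0.23 to 0.16, with 3 of 36 over 0.1. With a replicate block the calls numbered 1, 0, 53, 39, 0, 396 and 1, in the order of genotypes at ST0 and ST1, stages in WT and Bcl6KO, the difference of effects and the averages over genotypes and stages, and Mxi1 reversed to -1.28 in the difference of effects.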
